A study of Mus musculus with 6 samples.

Results

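The 4 joining (J) gene segments of the mouse immunoglobulin heavy chain, IGHJ1 to IGHJ4, were described in splenic B cells of 2 mice, 1 heterozygous 564Igi mouse and 1 WT mouse. The 564Igi mouse carried the alleles Ightm1(Igh564)Tik and Igktm1(Igk564)Tik on a B6.129S4(Cg) background, which place a rearranged heavy and kappa light chain of an autoreactive antibody in the germline loci. The WT mouse was C57BL/6JRj. Both spleens were depleted of Ter-119-positive cells, a step that removes erythroid cells, and were captured in droplets for 5' single-cell libraries with B cell and T cell receptor enrichment. The ages and sexes of the mice were not given in the sources used here.

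Members were all heavy chain contigs, the assembled receptor transcripts of single barcodes, that named 1 of the 4 segments in a B cell, carried the confidence flag and had at least 2 unique molecular identifiers (UMIs). Barcodes counted as B cells when they had a cell call in the B cell receptor table only. The rule kept 3943 contigs in 3553 cells of the 564Igi mouse, of 39475 contigs in its B cell table. It kept 5952 contigs in 5187 cells of the WT mouse, of 43992 contigs. The 4 segments were among 440 receptor gene segments named in the series. No differences between the mice were tested against the spread between animals, since each group was 1 mouse. Intervals are exact (Clopper-Pearson) 95% intervals for shares and Newcombe intervals for differences, and both cover counting error only. Contigs of 1 mouse share that mouse and are not replicates.

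A heavy chain variable region is assembled by the RAG recombinase, which first joins a diversity (D) segment to a J segment and then a variable (V) segment to the DJ unit. The exonuclease trimming of the ends and the bases added by terminal transferase make the third complementarity-determining region (CDR3), which runs from a conserved cysteine of V to a conserved tryptophan of J. The J segment therefore supplies the last residues of the CDR3 and the framework that follows, and the choice among J segments bears on the length and the chemistry of the antigen-binding loop.

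In the RefSeq annotation of GRCm38.p6 the 4 segments lie within 1320 bases of chromosome 12. Ighj1 spans 113429781 to 113429833, Ighj2 spans 113429468 to 113429515, Ighj3 spans 113429085 to 113429132 and Ighj4 spans 113428514 to 113428567. The gaps between neighbours are 265, 335 and 517 bases in that order. Transcription of the locus runs towards lower coordinates. Ighj1 is therefore nearest the D segments, of which Ighd4-1 (113430528 to 113430538) is closer and Ighd1-1 (113482170 to 113482192) farther, and Ighj4 is nearest the constant genes, of which Ighm (113418826 to 113422730) is the first.

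The part of each J segment that reached the CDR3 could be read from the contigs. The following ends were taken base by base from the tryptophan codon outwards, keeping the commonest base for as long as at least 60% of the matching WT CDR3 sequences shared it. The same ends came out of both mice. They are ends shared by the sequences and not germline sequences, which were not used here. The capitals mark the codon of the conserved tryptophan.
IGHJ1: actggtacttcgatgtcTGG
IGHJ2: tactactttgactacTGG
IGHJ3: gcctggtttgcttacTGG
IGHJ4: attactatgctatggactacTGG
The IGHJ1, IGHJ2, IGHJ3 and IGHJ4 ends were 20, 18, 18 and 23 bases long. In amino acids the IGHJ1 end gave YFDVW, the IGHJ2 end YFDYW, the IGHJ3 end WFAYW and the IGHJ4 end AMDYW as the last 5 residues when it was not trimmed into them.

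The next CDR3 sequences show what trimming leaves. The capitals mark the bases that match the shared J end without a break from the 3' side. The first is the commonest heavy chain of the 564Igi mouse, which joined IGHV1-53 in 1843 of its 1857 contigs. The others are, for each segment in the WT mouse, the CDR3 nearest the median length with the most UMIs.
564Igi, candidate knock-in chain, IGHJ4: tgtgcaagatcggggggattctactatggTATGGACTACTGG
WT, IGHJ1: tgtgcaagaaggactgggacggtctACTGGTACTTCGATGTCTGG
WT, IGHJ2: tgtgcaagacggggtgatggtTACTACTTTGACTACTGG
WT, IGHJ3: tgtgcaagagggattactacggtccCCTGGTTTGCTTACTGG
WT, IGHJ4: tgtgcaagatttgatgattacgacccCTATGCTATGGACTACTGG
The candidate chain kept 13 bases of the IGHJ4 end and had 29 other bases. Against the IGHJ4 end it held the substitutions C14G, T22C and A23T, with positions counted from 1 at the 3' end of the CDR3, the base of the shared end first and that of the candidate last.

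Chains whose CDR3 ended in GGFYYGMDYW, the last 10 residues of the candidate, were set apart from the productive, nonproductive and uncalled contigs of the 564Igi mouse wherever a CDR3 was present. Contigs with no V gene have no CDR3, and are given by whether the main productive chain of their cell carried the end. They were 2592 productive contigs in the 564Igi mouse, all of IGHJ4, which made 72.1% of its productive contigs and 89.5% of its productive IGHJ4 contigs. The WT mouse held 0 of 5195 productive contigs with that end, and 3 such contigs would make 0.0577%. Without the end, 1001 productive contigs in 986 cells remained in the 564Igi mouse, with 979 distinct combinations of V gene, J gene and CDR3. The WT mouse had 5195 productive contigs in 4824 cells, with 5158 distinct combinations. No combination was shared by the mice. Of the barcodes called B cells, 31 occurred in both mice, 20 of them with productive heavy chains in both and 0 with the same CDR3.

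The remaining contigs had no productive reading or no call. Contigs marked nonproductive numbered 7 in the 564Igi mouse without the end, 16 more with it, and 51 in the WT mouse. Contigs with a V gene but no productive call numbered 45 in the 564Igi mouse, another 22 with the end, and 301 in the WT mouse. Contigs with a J segment, no V gene and no productive call numbered 260 in the 564Igi mouse and 405 in the WT mouse. The contigs analysed held 199879 UMIs in the 564Igi mouse and 186325 in the WT mouse, of 747499 and 927382 UMIs in the B cell tables of 564Igi and WT.

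Among productive contigs the order of use was close in the 2 mice: IGHJ2 and IGHJ4 were used most, IGHJ3 next and IGHJ1 least. IGHJ1 made 153 of 1001 contigs, 15.3% (13.1 to 17.7), in the 564Igi mouse and 888 of 5195, 17.1% (16.1 to 18.1), in the WT mouse. IGHJ2 made 308 contigs, 30.8% (27.9 to 33.7), in the 564Igi mouse and 1640, 31.6% (30.3 to 32.9), in the WT mouse. IGHJ3 and IGHJ4, the segments nearer the constant genes, made the rest. IGHJ3 made 236 contigs, 23.6% (21.0 to 26.3), in the 564Igi mouse and 1214, 23.4% (22.2 to 24.5), in the WT mouse. IGHJ4 made 304 contigs, 30.4% (27.5 to 33.3), in the 564Igi mouse and 1453, 28.0% (26.8 to 29.2), in the WT mouse. The intervals of every segment overlapped between the mice, and those of IGHJ2 and IGHJ4 overlapped each other in the 564Igi mouse and not in the WT mouse.

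The differences, 564Igi minus WT in percentage points, were -1.81 (-4.22 to 0.779) for IGHJ1 and -0.800 (-3.92 to 2.42) for IGHJ2. They were 0.208 (-2.64 to 3.19) for IGHJ3 and 2.40 (-0.697 to 5.59) for IGHJ4. All 4 intervals include 0, with an upper bound of 5.59 points for IGHJ4. Intervals of 0 of the 4 J segments failed to overlap between the mice, against 5 of the 80 heavy chain segments with at least 20 contigs in either mouse, or 6.25%. Those 5 were IGHV1-82, IGHV14-3, the D segment IGHD3-1 and the constant genes IGHM and IGHD. IGHD3-1 was also the D segment named for the candidate chain. It made 8.55% (5.66 to 12.3) of IGHJ4 contigs in the 564Igi mouse and 2.68% (1.92 to 3.65) in the WT mouse. With each of the other J segments its intervals overlapped between the mice. The difference between the mice in IGHJ4 share changed sign with the way the candidate end was removed. It was -0.725 (-3.79 to 2.46) when the end was matched over the last 30 bases with up to 2 mismatches, and -1.44 (-4.49 to 1.73) when IGHJ4 chains ending in GMDYW were left out of both mice. With only cells of 1 productive heavy contig it was 3.33 points, and its interval (0.0238 to 6.73) then excluded 0.

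**Figure D1:**
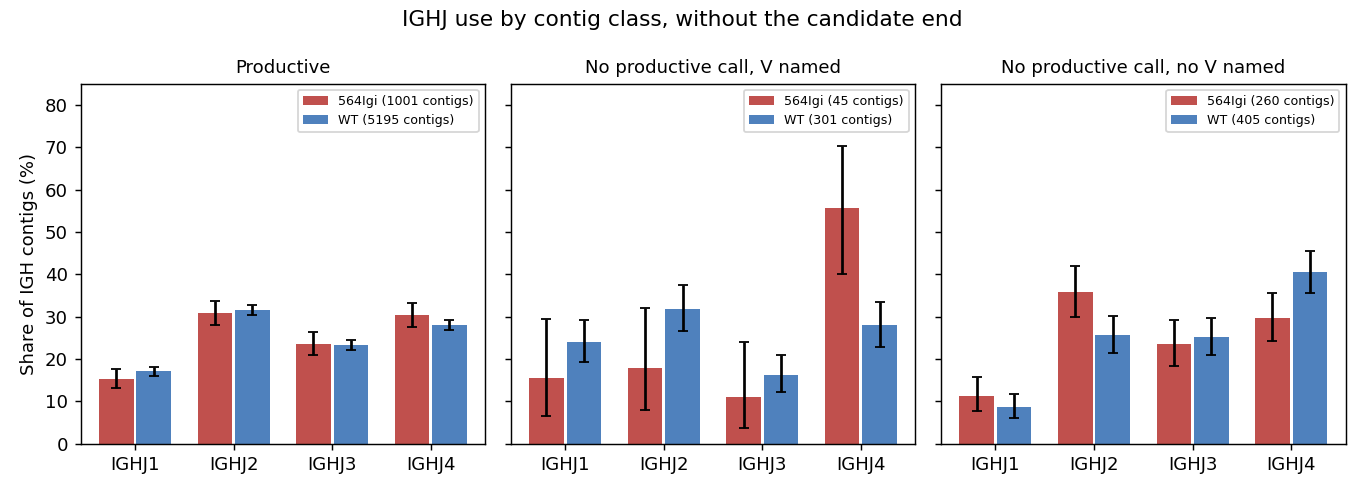
Share of IGHJ1 to IGHJ4 (percent of heavy chain contigs of B cells) in 3 contig classes, 564Igi on the left of each pair and WT on the right, with exact 95% intervals as bars; contigs known to carry the candidate end were left out. In productive contigs the bars of the 2 mice lie within 2.40 points of each other, whereas among contigs with no V gene IGHJ4 stood at 29.6% in 564Igi and 40.5% in WT.

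Nonproductive contigs can come from failed rearrangements on the other allele, which are not selected for their protein, and few were found. All of them had a CDR3 length in whole codons: 7 without and 16 with the end in the 564Igi mouse, and 51 in the WT mouse. The class therefore does not represent joins with an out-of-frame CDR3. In the 564Igi mouse 0, 2, 4 and 1 of 7 were of IGHJ1, IGHJ2, IGHJ3 and IGHJ4, and the exact interval of the 0 for IGHJ1 allows a share of up to 41.0%. In the WT mouse 4 of 51 were of IGHJ1, 22 (43.1%) of IGHJ2, 14 (27.5%) of IGHJ3 and 11 (21.6%) of IGHJ4. The WT shares in productive minus nonproductive contigs differed by 9.25 points (-1.83 to 15.0) for IGHJ1 and -11.6 points (-26.2 to 2.28) for IGHJ2. They differed by -4.08 points (-18.4 to 7.54) for IGHJ3 and 6.40 points (-7.41 to 16.8) for IGHJ4. All 4 of these intervals include 0, and the values depended on the contigs counted. With a minimum of 5 UMIs, which left 22 nonproductive WT contigs, the IGHJ3 difference turned to 18.7 points (0.364 to 23.3) and the IGHJ2 difference was -23.0 points (-44.1 to -0.660). With the uncalled contigs counted as nonproductive too, 757 in all, the IGHJ4 difference turned to -6.24 points (-9.95 to -2.65). A stop codon stood inside the CDR3 in 2 of 7 such contigs of the 564Igi mouse, in 7 of its 16 with the candidate end, and in 23 of 51 (45.1%) of the WT mouse.

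Contigs with a J segment and no V gene gave another view of the locus. In the 564Igi mouse, IGHJ1 to IGHJ4 made 29, 93, 61 and 77 of 260 such contigs, or 11.2%, 35.8%, 23.5% and 29.6%. The WT mouse had 35, 104, 102 and 164 of 405, or 8.64%, 25.7%, 25.2% and 40.5%. IGHJ2 was the most frequent in the 564Igi mouse and IGHJ4 in the WT mouse, with differences, 564Igi minus WT, of 10.1 points (2.70 to 17.5) for IGHJ2 and -10.9 points (-18.3 to -3.22) for IGHJ4. These totals mix 564Igi cells of opposite kinds. In 564Igi cells whose main productive chain carried the candidate end, IGHJ1 to IGHJ4 made 25, 80, 52 and 38 of 195 no-V contigs, with IGHJ2 at 41.0% (34.0 to 48.3) and IGHJ4 at 19.5% (14.2 to 25.8). In 564Igi cells whose main productive chain lacked the end they made 0, 2, 1 and 29 of 32, with IGHJ4 at 90.6% (75 to 98.0). WT cells with a productive chain had 23, 68, 66 and 127 of 284, with IGHJ4 at 44.7% (38.8 to 50.7). IGHJ4 was thus below WT in the cells with the end and above WT in those without it, and neither interval overlapped that of WT. In 564Igi cells with no productive chain, IGHJ1 to IGHJ4 made 4, 11, 8 and 10 of 33 no-V contigs. The lead of IGHJ2 in the 564Igi total came mainly from the cells with the end.

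Within the WT mouse the share of contigs with no V gene climbed along the locus. Of the contigs that were either productive or had no V gene, those with no V made 3.79% (2.66 to 5.23) for IGHJ1, 5.96% (4.90 to 7.18) for IGHJ2, 7.75% (6.36 to 9.33) for IGHJ3 and 10.1% (8.71 to 11.7) for IGHJ4. The intervals of neighbouring segments overlapped, and those of IGHJ1 and IGHJ4 did not. The 564Igi mouse without the end had 15.9%, 23.2%, 20.5% and 20.2% for IGHJ1 to IGHJ4, with no such order, but there the no-V contigs come mostly from cells with the end while the productive contigs lack those chains, so these values cannot be set beside those of WT. In WT, productive minus no-V shares were 8.45 points (5.12 to 11.2) for IGHJ1, 5.89 (1.17 to 10.3) for IGHJ2 and -12.5 (-17.6 to -7.55) for IGHJ4.

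The no-V contigs were short, carried few UMIs and were mostly unswitched. Their median UMI count was 4 in the 564Igi mouse and 3 in the WT mouse, and their median length was 474.5 bases in 564Igi and 434 bases in WT. The constant gene was IGHM in 148 of them and IGHD in 105 in the 564Igi mouse, and IGHM in 250 and IGHD in 152 in the WT mouse. No D segment was named in any of them, and with no CDR3 they could not be searched for the candidate end. Among B cells with a productive heavy chain, 227 of 3471 (6.54%) held such a contig in the 564Igi mouse and 284 of 4824 (5.89%, 5.24 to 6.59) in the WT mouse. The 564Igi cells whose main chain carried the end held one in 195 of 2530, 7.71% (6.70 to 8.82), and those without the end in 32 of 941, 3.40% (2.34 to 4.77), so the cells without the end lay below WT.

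Because both alleles of a B cell can recombine, the J segment of a no-V contig can be set beside that of the main productive chain of the same cell. In the 564Igi mouse, cells whose productive chain used IGHJ1, IGHJ2 or IGHJ3 had IGHJ4 in 21 of 23 no-V contigs, 91.3% (72.0 to 98.9). The corresponding WT cells had IGHJ4 in 96 of 208, 46.2% (39.2 to 53.2). Beside IGHJ4 chains without the end, the no-V contig was of IGHJ4 in 8 of 9 cases, 88.9% (51.8 to 99.7), in the 564Igi mouse and in 31 of 76, 40.8% (29.6 to 52.7), in the WT mouse. Among chains without the end, the intervals beside IGHJ4 and beside the other segments overlapped within each mouse. Beside the IGHJ4 chains with the end it was of IGHJ4 in 38 of 195. Second productive chains beside an IGHJ1, IGHJ2 or IGHJ3 chain were of IGHJ4 in 35 of 40 (87.5%) in the 564Igi mouse and 67 of 251 (26.7%) in the WT mouse. Of those 40 second chains in the 564Igi mouse, 30 carried the candidate end. Productive chains with that end also stood in 642 of 4573 barcodes called only T cells in this mouse. Whether the second chains were made by the cells that held them was not tested.

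**Figure D2:**
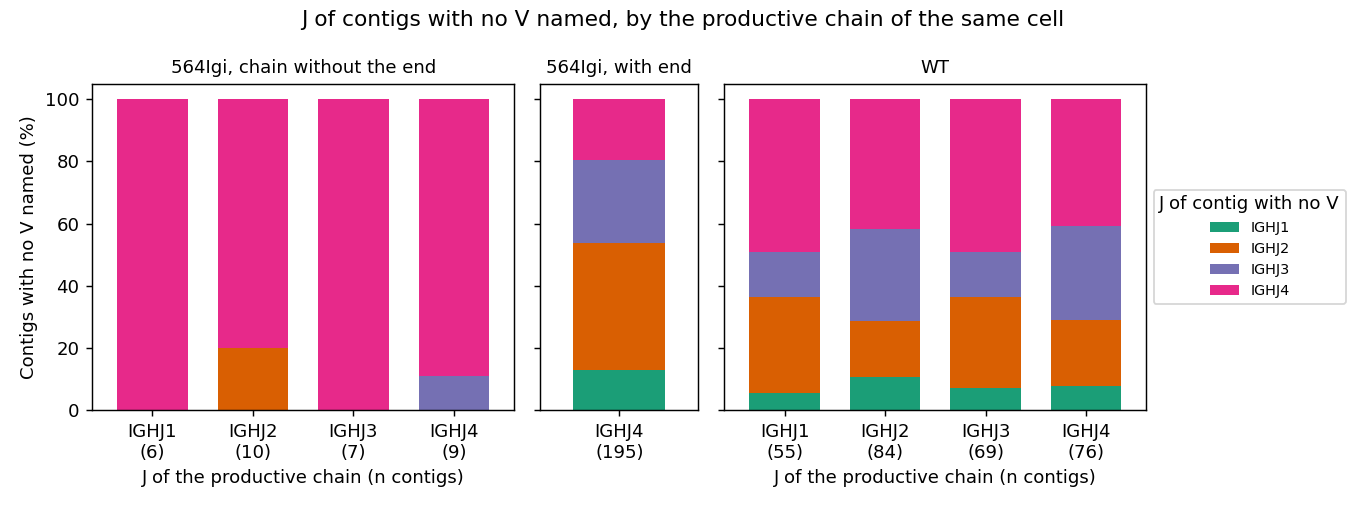
J segment of contigs with no V gene (percent, stacked) by the J segment of the main productive chain of the same cell, with the number of no-V contigs under each bar: 564Igi cells whose chain lacked the candidate end on the left, 564Igi cells whose chain carried it in the middle, and WT on the right. In 564Igi 29 of 32 no-V contigs were of IGHJ4 beside chains without the end and 38 of 195 beside chains with it, against 127 of 284 in WT.

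Contigs with a V gene but no productive call had another make-up. IGHJ4 made 25 of 45, 55.6%, in the 564Igi mouse and 84 of 301, 27.9%, in the WT mouse, a difference of 27.6 points (11.2 to 43.3). Only 15 of the 45 contigs in the 564Igi mouse (5 of its 25 IGHJ4 contigs) and 184 of the 301 in the WT mouse had a CDR3, so the candidate end could not be looked for in the rest. Their median lengths of 467 bases in 564Igi and 460 bases in WT were below the 676 bases of productive contigs in both mice.

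CDR3 length separated the segments into 2 pairs. CDR3s of IGHJ1 averaged 15.3 ± 2.65 amino acids (SD, 153 contigs) in the 564Igi mouse and 15.1 ± 2.48 (888 contigs) in the WT mouse. Those of IGHJ4 averaged 15.0 ± 2.71 amino acids in the 564Igi mouse and 14.8 ± 2.58 in the WT mouse. CDR3s of IGHJ2 averaged 13.3 ± 2.63 in the 564Igi mouse and 13.1 ± 2.57 in the WT mouse. The shorter pair was completed by IGHJ3, with 13.0 ± 2.40 in the 564Igi mouse and 13.4 ± 2.45 in the WT mouse. The 95% intervals of the means, by a normal approximation over contigs, overlapped between the mice for every segment, narrowly for IGHJ3 (12.7 to 13.3 in 564Igi, 13.3 to 13.6 in WT). At a minimum of 5 UMIs those of IGHJ3 did not overlap (12.6 to 13.2 in 564Igi, 13.3 to 13.6 in WT). With barcodes called in both tables kept, those of IGHJ3 also parted, narrowly (12.69 to 13.28 in 564Igi, 13.29 to 13.56 in WT). The plot of length by segment shows the displacement of IGHJ1 and IGHJ4 towards longer loops.

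**Figure D3:**
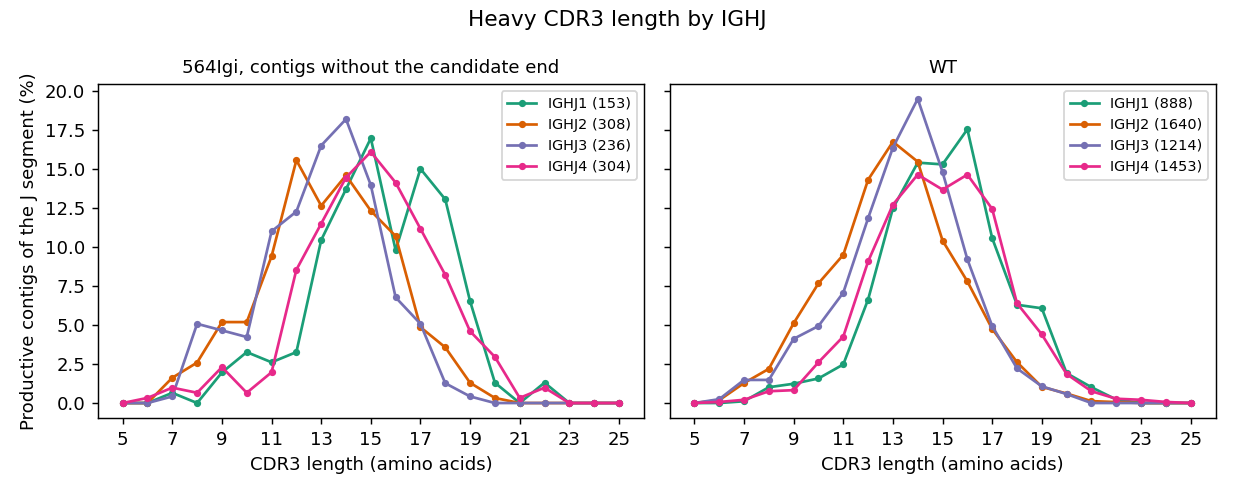
Heavy CDR3 length (amino acids) of productive contigs, as a percent of the contigs of each J segment, 564Igi on the left without the candidate end and WT on the right, with contig numbers in the legend. The IGHJ1 and IGHJ4 curves, with medians of 15 in both mice, lie to the right of those of IGHJ2 and IGHJ3, with medians of 13 to 14.

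The same pairs appeared when the D segment or the V family was held fixed. With the D segment IGHD1-1, IGHJ1 to IGHJ4 averaged 16.8, 14.3, 14.0 and 16.0 amino acids in the 564Igi mouse and 16.2, 14.3, 14.4 and 16.1 in the WT mouse. Within the IGHV1 family they averaged 15.4, 13.3, 12.8 and 15.0 amino acids in the 564Igi mouse and 15.1, 13.1, 13.4 and 14.9 in the WT mouse.

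The bases that matched the shared J end were counted next, since the CDR3 is the sum of this J part and the rest. IGHJ1 chains kept 18.1 ± 2.83 of 20 bases in the 564Igi mouse and 18.1 ± 2.71 in the WT mouse. IGHJ4 chains kept 16.7 ± 4.41 of 23 bases in the 564Igi mouse and 18.3 ± 3.60 in the WT mouse. IGHJ2 chains kept 12.9 ± 3.74 of 18 bases in the 564Igi mouse and 13.2 ± 3.66 in the WT mouse, and IGHJ3 chains 13.6 ± 3.37 in 564Igi and 14.0 ± 3.16 in WT. The rest of the CDR3, from V, D and added bases, over IGHJ1 to IGHJ4 averaged 27.9, 26.9, 25.5 and 28.3 bases in the 564Igi mouse and 27.0, 26.0, 26.2 and 26.3 bases in the WT mouse. In the WT mouse the segments thus differed more in the J part than in the rest, whereas in the 564Igi mouse the rest also varied. With 1 mismatch allowed in the match, the rest of IGHJ4 chains averaged 26.9 bases in the 564Igi mouse and 26.1 in the WT mouse, and that of IGHJ1 chains 27.9 in 564Igi and 27 in WT.

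The share of chains that matched the whole shared end was highest for IGHJ1. Its end was complete in 48.4% of chains in the 564Igi mouse and 47.1% in the WT mouse. The next most frequent IGHJ1 state lacked 3 bases, in 22.2% of chains in the 564Igi mouse and 20.05% in the WT mouse. Complete ends were less frequent for the other segments, at 16.9% in 564Igi and 16.0% in WT for IGHJ2, 14.8% in 564Igi and 18.5% in WT for IGHJ3, and 11.5% in 564Igi and 15.0% in WT for IGHJ4. A chance match of an added base counts as a retained base, and a base changed by mutation or read error ends the match, so these are lengths of matching sequence and not measured trimming.

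**Figure D4:**
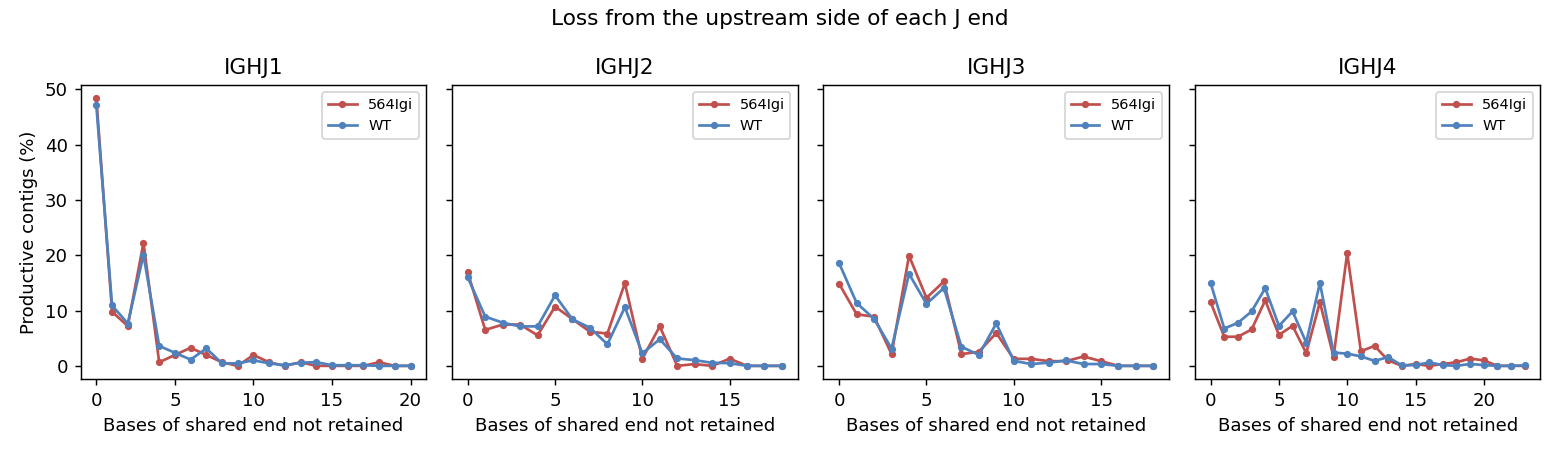
Bases of the shared J end that were not retained (x axis, from the D side) as a percent of productive contigs of each segment, with 564Igi in red and WT in blue; 564Igi is without the candidate end. The curves of the mice lie close for IGHJ1, IGHJ2 and IGHJ3, whereas IGHJ4 has a peak at 10 missing bases, with 20.4% of chains in 564Igi and 2.20% in WT.

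The peak of 564Igi IGHJ4 chains at 10 missing bases lay at the first substitution of the candidate chain, C14G. At the protein level, IGHJ4 CDR3s ended in GMDYW in 55 of 304 chains, 18.1% (13.9 to 22.9), in the 564Igi mouse and in 15 of 1453, 1.03% (0.579 to 1.70), in the WT mouse. The usual end AMDYW made 67.4% (61.9 to 72.7) of IGHJ4 chains in the 564Igi mouse and 89.7% (88.0 to 91.2) in the WT mouse. The 55 chains used 34 V genes and did not carry the whole 10-residue end. From the 3' end they matched the candidate exactly over a median of 24 bases (12 to 29), and 34 of them had at most 2 mismatches to it over 30 bases. A set of 24 chains of the 564Igi mouse without the end had the candidate's CDR3 length with at most 5 mismatches, against 0 in the WT mouse. Whether such chains derive from the candidate was not tested. With 1 mismatch allowed in the match, IGHJ4 chains kept 18.0 bases in the 564Igi mouse and 18.4 in the WT mouse.

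The last residues of the other segments differed less between the mice. IGHJ1 chains ended in YFDVW in 90.2% of contigs in the 564Igi mouse and 91.7% in the WT mouse. IGHJ2 chains ended in YFDYW in 38.3% in the 564Igi mouse and 40.0% in the WT mouse. IGHJ3 chains ended in WFAYW in 35.2% in the 564Igi mouse and 41.5% in the WT mouse, and in GFAYW, where the tryptophan was lost, in 20.8% in 564Igi and 14.9% in WT.

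The segments differed in an acidic residue that the end supplies. Aspartate stood among the last 4 residues in 98.7%, 91.2%, 1.69% and 98.4% of IGHJ1, IGHJ2, IGHJ3 and IGHJ4 chains in the 564Igi mouse, and in 98.5%, 91.0%, 1.15% and 98.6% in the WT mouse. A net charge of at least +1, counting arginine and lysine minus aspartate and glutamate, was found in 46.6% (40.1 to 53.2) of IGHJ3 chains in the 564Igi mouse and 41.1% (38.3 to 43.9) in the WT mouse. In the other segments it was found in 22.2%, 18.5% and 24.7% of IGHJ1, IGHJ2 and IGHJ4 chains in the 564Igi mouse and in 20.3%, 19.1% and 17.5% in the WT mouse. The intervals of the mice did not overlap for IGHJ4 (19.9 to 29.9 in 564Igi, 15.6 to 19.6 in WT) and overlapped for the other segments. Over all segments they overlapped too, at 27.6% (24.8 to 30.5) in 564Igi and 24.0% (22.9 to 25.2) in WT. Positive charge in an antibody loop is known as a feature of many DNA-binding autoantibodies.

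With the last 4 residues left out, the order of the segments changed. A net charge of at least +1 then stood in 56.2%, 51.3%, 47.5% and 58.2% of IGHJ1 to IGHJ4 chains in the 564Igi mouse, and in 55.7%, 52.1%, 40.9% and 52.0% in the WT mouse. IGHJ3, the highest with its end, was the lowest without it in both mice, where its interval lay apart from those of the other segments in the WT mouse and overlapped all of them in the 564Igi mouse. Tyrosine, a common contact residue of antibody loops, made 14.7%, 18.4%, 15.1% and 19.5% of CDR3 residues of IGHJ1 to IGHJ4 in the 564Igi mouse and 15.2%, 18.6%, 15.4% and 20.01% in the WT mouse. A second cysteine was found in 1.96%, 0.325%, 0.847% and 1.64% of IGHJ1 to IGHJ4 chains in the 564Igi mouse and in 1.80%, 1.89%, 1.32% and 1.93% in the WT mouse. The 564Igi values rest on 3, 1, 2 and 5 chains, and the intervals of the mice overlapped for every segment.

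J use differed by D partner. D genes are named from short stretches and near-identical members share sequence, so a D call is less certain than a V or J call. With IGHD1-1, a D segment at the far end of the D cluster, IGHJ1 made 21.6% of contigs against 12.3% of all other contigs in the 564Igi mouse, and 24.6% against 13.0% in the WT mouse. With IGHD4-1, the short D segment nearest the J cluster, IGHJ2 made 44.3% against 29.5% of other contigs in the 564Igi mouse and 41.5% against 30.6% in the WT mouse. IGHD4-1 contigs used IGHJ4 less, at 15.9% against 31.8% in the 564Igi mouse and 20.6% against 28.7% in the WT mouse. These were the 3 relations of a V or D gene with at least 50 contigs whose intervals did not overlap the rest in the 564Igi mouse, of 32 examined, or 9.38%, with contigs that named no D counted as a partner. In the WT mouse 22 of 192 did not overlap, or 11.5%.

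Further WT relations involved 3 D segments and 6 V genes in all, named as up to 3 per J by size. IGHD3-2 contigs used IGHJ1 in 3.88%, against 17.7% of other contigs. IGHD2-4 contigs used IGHJ3 in 36%, against 21.7%, and in the 564Igi mouse in 32.6% against 22.2%, where the intervals overlapped. For V partners, IGHV2-9-1 and IGHV8-12 were rich in IGHJ1, at 32.8% against 16.9% and 30.2% against 16.8%. IGHV10-3 and IGHV2-2 were poor in IGHJ2, at 16.2% against 31.8% and 17.4% against 31.8%, and rich in IGHJ4, at 47.1% against 27.7% and 46.7% against 27.6%. IGHV14-4 used IGHJ3 in 35.1% against 23.2%, and IGHV1-39 in 12% against 23.6%. Those V genes had too few contigs in the 564Igi mouse for the same rule.

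By family, the largest group, IGHV1, made 45.8%, 54.2%, 52.5% and 51.3% of IGHJ1 to IGHJ4 contigs in the 564Igi mouse, and 49.3%, 64.5%, 60.4% and 56.0% in the WT mouse. IGHV2 made 9.80%, 3.57%, 10.2% and 10.9% in the 564Igi mouse and 5.86%, 2.62%, 4.61% and 9.08% in the WT mouse. The intervals of the mice did not overlap in 3 of 40 pairs of a family and a J segment (7.5%). These were IGHV1 with IGHJ2, IGHV2 with IGHJ3, and IGHV14 with IGHJ2, at 7.79% (5.06 to 11.4) in the 564Igi mouse and 3.54% (2.70 to 4.55) in the WT mouse. In both mice IGHV1 was least frequent with IGHJ1 and IGHV2 least frequent with IGHJ2. Among IGHV2 contigs IGHJ4 was the commonest segment, at 33 of 83 (39.8%) in the 564Igi mouse and 132 of 283 (46.6%) in the WT mouse. IGHV8 made 8.50%, 4.87%, 2.97% and 4.93% of IGHJ1 to IGHJ4 contigs in the 564Igi mouse and 8.90%, 4.76%, 5.11% and 5.02% in the WT mouse. IGHV10 was absent from the 153 IGHJ1 contigs of the 564Igi mouse, where the exact interval allows up to 2.38%, and made 1.80% of those of the WT mouse.

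**Figure D5:**
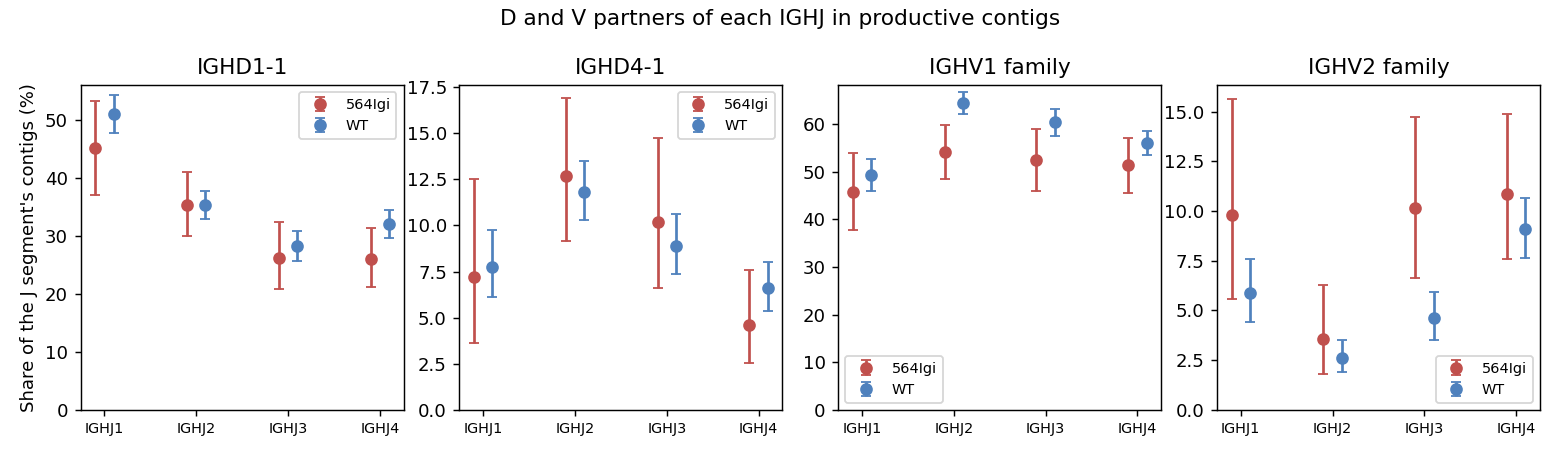
Share of IGHD1-1, IGHD4-1, the IGHV1 family and the IGHV2 family (percent of the productive contigs of each J segment), 564Igi left of WT, with exact 95% intervals. IGHD1-1 is highest with IGHJ1, at 45.1% in 564Igi and 51.0% in WT, and IGHD4-1 is highest with IGHJ2 in both mice, at 12.7% in 564Igi and 11.8% in WT.

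The UMI count of a chain, a measure of its transcript abundance in the cell, did not separate the segments. Medians were 15, 14, 15.5 and 15 UMIs for IGHJ1 to IGHJ4 in the 564Igi mouse and 14 for every segment in the WT mouse. Chains of at least 1000 UMIs, as antibody-secreting cells make, numbered 3, 3, 7 and 9 for IGHJ1 to IGHJ4 in the 564Igi mouse, 22 of 1001 (2.20%). The WT mouse had 4, 10, 2 and 5 such chains, 21 of 5195 (0.404%). The largest held 6010 UMIs, of IGHJ2, in the 564Igi mouse and 13370 UMIs, of IGHJ2, in the WT mouse.

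Most chains were joined to the mu or delta constant gene in both mice. Over all segments, class-switched constant genes (IGHG or IGHA) were found in 25 of 970 contigs that named a constant gene, 2.58% (1.67 to 3.78), in the 564Igi mouse. The WT mouse had 26 of 4878, 0.533% (0.348 to 0.780). For IGHJ4, switched genes were found in 15 of 293, 5.12% (2.89 to 8.30), in the 564Igi mouse, and in 4 of 1361, 0.294% (0.0801 to 0.751), in the WT mouse. In the 564Igi mouse the IGHJ4 interval overlapped those of IGHJ1 (1.11 to 7.71) and IGHJ3 (0.270 to 3.76) and not that of IGHJ2 (0.0811 to 2.40). For IGHJ1, switched genes were found in 5 of 148 (3.38%) in the 564Igi mouse and 8 of 820 (0.976%) in the WT mouse, where the 8 contigs were only 3 distinct chains against 5 in the 564Igi mouse. IGHJ2 had 2 of 299 (0.669%) in the 564Igi mouse and 13 of 1542 (0.843%) in the WT mouse, as 2 and 9 distinct chains of 564Igi and WT. IGHJ3 had 3 of 230 (1.30%) in the 564Igi mouse and 1 of 1155 (0.0866%) in the WT mouse. The 15 switched IGHJ4 contigs were 12 distinct chains, all IGHG, and 2 of the contigs had at least 1000 UMIs. In 6 of the 15 the CDR3 ended in GMDYW, which made 6 of 55 such chains, 10.9% (4.11 to 22.2), against 9 of 238 other IGHJ4 chains, 3.78% (1.74 to 7.06), in the same mouse.

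The delta constant gene IGHD made 19.6%, 14.5%, 12.3% and 8.99% of the mu and delta contigs of IGHJ1 to IGHJ4 in the 564Igi mouse and 24.1%, 23.1%, 19.3% and 20.6% in the WT mouse. The 564Igi values ran downwards from IGHJ1 to IGHJ4, where the intervals of IGHJ1 (13.4 to 27.0) and IGHJ4 (5.90 to 13.0) did not overlap. Every segment had the lower IGHD share in the 564Igi mouse, with intervals apart from WT for IGHJ2 and IGHJ4 and overlapping for IGHJ1 and IGHJ3. No constant gene was named in 3.27%, 2.92%, 2.54% and 3.62% of contigs in the 564Igi mouse and in 7.66%, 5.98%, 4.86% and 6.33% in the WT mouse.

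Among B cells, chains with the candidate end were found in the 564Igi mouse only, and most of them had the CDR3 of the candidate itself. Of the 2592 productive contigs, 1857 were the candidate itself and 735 were others with 718 distinct sequences and 76 V genes. The others were longer than the candidate in 727 contigs, as long in 6 and shorter in 2, with a mean of 20.1 ± 2.37 amino acids. IGHV1 made 40.8% of them, IGHV2 15.0%, IGHV5 11% and IGHV9 8.98%. The candidate had a median of 19 UMIs and the others 17. The 1857 candidate contigs have the same CDR3 by definition, and its net charge is below +1. A net charge of at least +1 was found in 39.0% of the others, which exceeds the 24.7% of 564Igi IGHJ4 chains without the end. Switched constant genes stood in 5 of 1828 candidate contigs (0.274%) and 5 of 707 others (0.707%), and IGHD made 21.9% of the mu and delta contigs of the candidate and 10.3% of the others.

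T cells make no antibody, so their barcodes show how often a heavy chain is found in a cell that should lack it. Productive heavy chains were found in 647 of 4573 barcodes called T cells and not B cells in the 564Igi mouse (14.1%), 642 of them with the candidate end, and in 2 of 3263 (0.0613%) in the WT mouse, 1 of them with the end. Without the end, 5 of the 4573 barcodes (0.109%) in the 564Igi mouse and 1 of 3263 (0.0306%) in the WT mouse held one. Among these barcodes, productive heavy chains were therefore frequent with the candidate end in the 564Igi mouse and rare without it in both mice. Barcodes also called B cells, 373 in the 564Igi mouse and 345 in the WT mouse, had been left out beforehand. These rates therefore do not measure the whole background of either kind of chain. Whether free RNA or shared droplets gave these chains was not tested.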

How the data were processed

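The 4 V(D)J libraries, of 6 described, were analysed. Expression libraries were not used here, and B cells were defined by receptor calls. The deposited tables list contigs with read and UMI counts, raw whole numbers per the file headers, with contig length in bases, a cell call, gene names and the CDR3. Cell Ranger 3.0.2 and mm10 are named in the submitters' processing notes, with no role. The sources used here do not say how cell calls, the confidence flag and the productive call were set. Reads per UMI vary, and counts of contigs, not reads, were compared.

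Barcodes called in both tables of a mouse, 373 in the 564Igi mouse and 345 in the WT mouse, were not counted. Without a doublet caller, droplets of 2 B cells remain among the cells with a second chain. The primary chain of a cell had the most UMIs. V and D genes were named with at least 50 contigs and an interval for a J share apart from all other contigs, up to 3 per J. Alternatives changed the UMI minimum (2) to 1 or 5, kept both-table barcodes, counted primary chains or distinct sequences, and changed the candidate rule. The members and lists were chosen with earlier results of these data known. Coordinates are from RefSeq, GRCm38.p6. With 1 mouse per group no p-value was computed. The J end, retained base and interval steps were tested on simulated data. Tables were handled with pandas 2.3.3 and NumPy 2.4.6 in Python 3.11.15, intervals came from SciPy 1.17.1 and plots from matplotlib 3.10.9.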

Additional observations from a re-analysis of the deposited data

Results flagged for a closer look

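In 3 comparisons of contig classes the difference in a J share had opposite signs in the 2 mice, and the difference between the mice was not tested. For IGHJ2, the share in productive minus nonproductive contigs was 2.20 points in the 564Igi mouse and -11.6 points in the WT mouse, where the 564Igi value rests on 7 nonproductive contigs. Against contigs with a V gene and no productive call, the productive share of IGHJ2 differed by 13.0 points in the 564Igi mouse and -0.325 points in the WT mouse, and that of IGHJ4 by -25.2 points in the 564Igi mouse and 0.0622 points in the WT mouse. Against contigs with no V gene, IGHJ2 differed by -5 points in the 564Igi mouse and 5.89 points in the WT mouse, IGHJ3 by 0.115 points in 564Igi and -1.82 points in WT, and IGHJ4 by 0.754 points in 564Igi and -12.5 points in WT. The 564Igi no-V contigs came mostly from cells whose chain carried the candidate end (195, against 32 from cells without it), whereas the productive contigs lack that end.

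Barcodes outside the B cell calls also held productive heavy chains. In the 564Igi mouse they stood in 14.1% of barcodes called T cells, and in 0.109% once chains with the candidate end were set aside. Of uncalled barcodes in the 564Igi mouse 1.33% held one, and 0.250% held one without the end. The WT values were 0.0613% of barcodes called T cells and 0.139% of uncalled barcodes.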

How the results depend on the processing

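No paired analysis was possible because each group was 1 mouse, and no sample could be left out for the same reason. Of 40 recomputed 564Igi minus WT differences in J share, 34 moved by less than the counting interval of the main value and 6 moved further. With the candidate end kept, the differences were -12.8 points for IGHJ1, -23.0 for IGHJ2, -16.8 for IGHJ3 and 52.6 for IGHJ4. For IGHJ4 the difference of 2.40 points became -0.725 points with the end matched over 30 bases with up to 2 mismatches, and -1.44 points without chains ending in GMDYW, an alternative chosen after seeing the data. With only cells of 1 productive heavy contig, also chosen after seeing the data, it was 3.33 points and its interval (0.0238 to 6.73) excluded 0, as no other of these 40 did apart from those with the candidate end kept. Of 20 recomputed WT productive minus nonproductive differences, 19 stayed within the wide interval of the main value, and 3 excluded 0 where the main value did not. At a minimum of 5 UMIs, on 22 nonproductive contigs, IGHJ3 moved to 18.7 points (0.364 to 23.3) and IGHJ2 to -23.0 points (-44.1 to -0.660). With uncalled contigs counted as nonproductive, IGHJ4 changed sign to -6.24 points (-9.95 to -2.65). The causes were not tested. All 48 recomputed mean lengths stayed within the 95% interval of the main mean. The IGHJ3 intervals of the mice nevertheless parted at 5 UMIs and with both-table barcodes kept. Depth limits the nonproductive class and the pairs of J segments in the 564Igi mouse, and contigs without a CDR3 could not be searched for the candidate end.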

Other observations

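Uncalled barcodes of the 564Igi mouse held 30 productive heavy chain barcodes without the candidate end, with 19 of IGHJ3, 8 of IGHJ2, 3 of IGHJ4 and 0 of IGHJ1. The T cell tables held 18 heavy chain contigs in the 564Igi mouse and 19 in the WT mouse, with a J segment named in 3 of them in 564Igi and 2 in WT.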
